A study of Homo sapiens with 9 samples.

Results

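The messenger RNAs of 8 genes of transfer RNA splicing were followed in U-373MG, an established human glioblastoma and astrocytoma cell line: RTCB, DDX1, FAM98B, ZBTB8OS, TSEN15, TSEN34, TSEN54 and CLP1. They are 8 of 24462 gene symbols, all 8 were found in every library, and all 8 passed the filter on low counts that left 13676 symbols for testing. RTCB was chosen because it was among the genes with the smallest p when NnK-1 was set against control, so its values in that contrast are a description and carry no test. Its contrasts that reuse those NnK-1 or control libraries are described in the same way. The other 7 were chosen for their place in the pathway, to ask whether RTCB moves alone. The groups were 3 libraries of cells given the peptide NnK-1 (200 nM, 48 h), 3 of cells given the peptide CBRV1-10493 (200 nM, 48 h) and 3 of untreated control cells. Both peptides are synthetic, derive from jellyfish and are described as ShK-like, after the sea anemone toxin ShK, a blocker of voltage-gated potassium channels. All groups share 1 cell line, and the same control libraries serve both peptides.

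Some transfer RNA precursors carry an intron that must be cut out before the transfer RNA can work. In human cells the TSEN endonuclease cuts at both ends of the intron, and the ligase RTCB joins the exons directly, within a complex that holds the helicase DDX1, FAM98B and C14orf166 and that needs the activator archease, encoded by ZBTB8OS. RTCB also joins the exons of XBP1 messenger RNA after the sensor IRE1 has cut it in the unfolded protein response. CLP1 is an RNA kinase that binds the TSEN endonuclease and also belongs to the machinery that cleaves messenger RNA at its 3′ end. Inherited defects of TSEN subunits and of CLP1 are known for pontocerebellar hypoplasia, a disease of brain development. The libraries hold polyadenylated transcripts, so the messenger RNAs of these genes were measured and transfer RNAs were not.

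Libraries held between 11203094 and 13491075 counts. NnK-1 replicate 2 stood apart from the rest in a principal component analysis, at 26.8 on the leading axis (27.4% of variance) against -15.8 to 8.36 for the other libraries. Glial and glioma markers were abundant, with VIM at 3670 to 7267 CPM (counts per 1000000 counts of a library), NES at 1243 to 1524 CPM and SOX2 at 389.7 to 484.8 CPM, while GFAP stood at 19.7 to 28.98 CPM and AQP4 at no more than 0.0825 CPM. The summed level of 5 oligodendrocyte markers was 44.94 to 54.36 CPM, with MOBP and SOX10 at 0 in all libraries, and that of 5 neuron markers 9.93 to 18.01 CPM. The summed level of 5 immune markers was at most 3.78 CPM, of 5 endothelial markers at most 3.79 CPM and of 5 epithelial markers at most 0.91 CPM, with CD3E, TEK, EPCAM and ESRP1 at 0 in all libraries. In bulk RNA fewer cells with a transcript and less of it per cell cannot be told apart.

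The 5′ ends of the ligase gene and of its helicase partner are shown because these genes have the highest levels of the 8 and RTCB was chosen for its difference between groups. Each window, from RefSeq on GRCh38.p14, runs from 250 bases before to 50 bases after the annotated start. Capitals mark matches to any of 5 motifs searched on both strands, which were the GC box with the letters GGGCGG, the ETS core with CCGGAAG, the CCAAT box, the TATA box with TATAAA and the E-box with CACGTG.
RTCB, chr22:32412198-32412497, minus strand: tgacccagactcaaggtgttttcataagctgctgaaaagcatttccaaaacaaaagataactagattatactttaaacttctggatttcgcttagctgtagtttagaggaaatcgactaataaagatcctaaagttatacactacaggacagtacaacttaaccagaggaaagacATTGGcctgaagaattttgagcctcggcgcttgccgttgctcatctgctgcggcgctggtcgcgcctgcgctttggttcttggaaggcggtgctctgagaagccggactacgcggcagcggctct
DDX1, chr2:15591618-15591917, plus strand: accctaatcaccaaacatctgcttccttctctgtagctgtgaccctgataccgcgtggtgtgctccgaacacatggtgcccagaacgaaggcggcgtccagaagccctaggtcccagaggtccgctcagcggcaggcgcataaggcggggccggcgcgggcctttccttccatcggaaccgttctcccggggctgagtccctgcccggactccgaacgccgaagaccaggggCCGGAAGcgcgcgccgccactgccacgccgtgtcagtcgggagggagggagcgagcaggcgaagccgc

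The RTCB window held 1 match, a CCAAT box on the reverse strand that begins 75 bases before the start. That motif occurs in 34.6% of 35116 RefSeq windows of the same length. The DDX1 window held 1 match, an ETS core, a motif found in 10.3% of windows. No match overlapped another in these sequences. The windows differed in base composition, with 46.7% G and C for RTCB and 67% for DDX1, against a median of 58.7% over all windows. RefSeq windows were matched for 6 of the 8 genes. All 3 windows of TSEN34 held at least 3 GC boxes, a motif of 45% of windows, and the CLP1 window held 1, while the FAM98B window held none of the 5 motifs. Each ZBTB8OS window held 2 GC boxes, and 1 of these windows also held 2 CCAAT boxes and 1 E-box, a motif of 7.26% of windows. These matches are letters in a sequence and were not tested as binding sites.

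RTCB, the ligase itself, stood higher with either peptide than in control cells. It had 99.1, 110.3 and 98.8 CPM in the NnK-1 libraries, 102, 90.1 and 86.6 CPM in the CBRV1-10493 libraries and 64.4, 76.5 and 77.8 CPM in the control libraries. Every library of either peptide lay above every control library, and the 2 peptides overlapped. Of all genes tested, 12.9% had groups that did not overlap, in either direction, with NnK-1 against control and 8.96% with CBRV1-10493. The group means were 102.7 ± 6.57 CPM with NnK-1, 92.9 ± 8.08 CPM with CBRV1-10493 and 72.9 ± 7.36 CPM in control cells (SD, n = 3 each). The log2 fold change of NnK-1 over control was 0.49, which is the value RTCB was chosen by. For CBRV1-10493 over control it was 0.35. Both values rest on the control libraries by which RTCB was chosen, and a choice for low control levels can raise the second value too, so it is given without a test. Without control replicate 1, the lowest library, the log2 fold change was 0.41 with NnK-1 and 0.27 with CBRV1-10493.

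**Figure D1:**
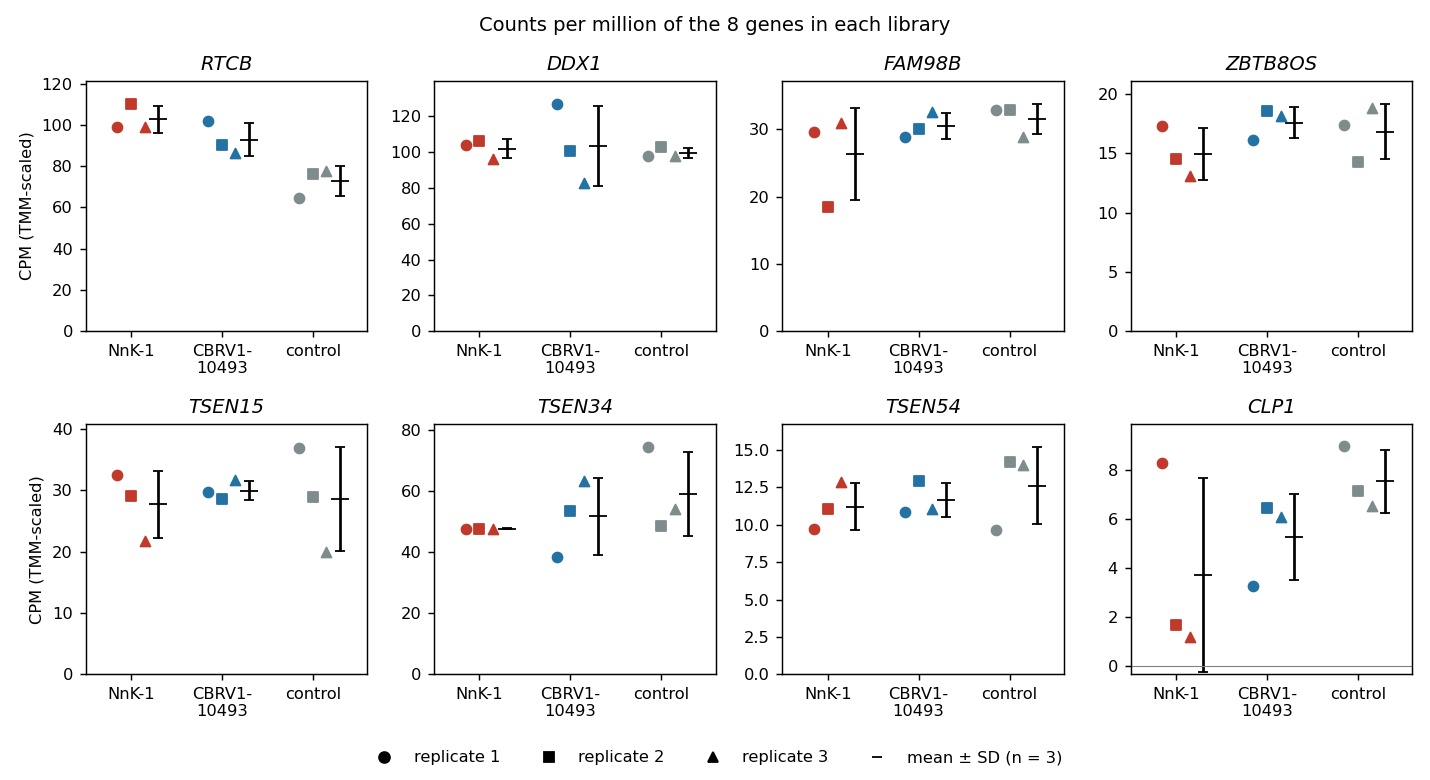
Level of each of the 8 genes in CPM (TMM-scaled, vertical axis from 0, or just below it where an SD bar crosses 0) in the NnK-1, CBRV1-10493 and control libraries; symbols are replicates and bars the mean and SD of 3 libraries. RTCB lies between 86.6 and 110.3 CPM in all peptide libraries and between 64.4 and 77.8 CPM in the control libraries, and CLP1 is uneven within the NnK-1 group, at 8.28 against 1.66 and 1.16 CPM.

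DDX1, the RNA helicase of the ligase complex, had 103.9, 106.3 and 95.9 CPM with NnK-1, 127, 100.5 and 82.9 CPM with CBRV1-10493 and 97.6, 102.9 and 98.0 CPM in control cells. The groups overlapped, and the widest spread was within the CBRV1-10493 group. Its log2 fold change was 0.04 with NnK-1 (95% interval -0.23 to 0.30, adjusted p = 0.975 by edgeR's quasi-likelihood test over all 13676 genes) and 0.06 with CBRV1-10493 (interval -0.21 to 0.32, adjusted p = 1). The second value was -0.12 without CBRV1-10493 replicate 1, the library at 127 CPM.

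FAM98B, a further subunit of the ligase complex, had 29.6, 18.5 and 30.9 CPM with NnK-1, 28.9, 30.03 and 32.6 CPM with CBRV1-10493 and 32.8, 32.9 and 28.9 CPM in control cells. All libraries but NnK-1 replicate 2, the library that lay apart, were within 28.9 to 32.9 CPM. The log2 fold change of NnK-1 over control was -0.26 (interval -0.62 to 0.10, adjusted p = 0.774) with that library and -0.06 without it. With CBRV1-10493 it was -0.05 (interval -0.41 to 0.31, adjusted p = 1).

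ZBTB8OS, which encodes archease, had 17.3, 14.5 and 13.1 CPM with NnK-1, 16.1, 18.6 and 18.1 CPM with CBRV1-10493 and 17.4, 14.3 and 18.9 CPM in control cells. The 3 groups overlapped. Its log2 fold change was -0.17 with NnK-1 (interval -0.56 to 0.22, adjusted p = 0.886) and 0.06 with CBRV1-10493 (interval -0.33 to 0.45, adjusted p = 1). In GENCODE v29 the 3′ end of ZBTB8OS lies inside ZBTB8A on the opposite strand. No source used here says whether the counting used strand, so the ZBTB8OS counts are uncertain.

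The TSEN endonuclease genes lay level with or below control. TSEN34, a catalytic subunit, had 47.7, 47.7 and 47.4 CPM with NnK-1, 38.4, 53.5 and 63.2 CPM with CBRV1-10493 and 74.3, 48.5 and 54.0 CPM in control cells. The NnK-1 libraries lay just below the lowest control library, and the CBRV1-10493 libraries spread across the control range. The log2 fold change was -0.31 with NnK-1 (interval -0.66 to 0.04, adjusted p = 0.715) and -0.19 with CBRV1-10493 (interval -0.54 to 0.16, adjusted p = 1). Without control replicate 1, at 74.3 CPM, these values were -0.11 and 0.01.

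TSEN15, a structural subunit, had 32.5, 29.1 and 21.8 CPM with NnK-1, 29.7, 28.6 and 31.7 CPM with CBRV1-10493 and 36.9, 28.9 and 20.0 CPM in control cells. Its control libraries alone spanned the values of both other groups. The log2 fold change was -0.04 with NnK-1 (interval -0.45 to 0.37, adjusted p = 0.985), and 0.19 without control replicate 1. With CBRV1-10493 it was 0.07 (interval -0.33 to 0.47, adjusted p = 1), and -0.13 without control replicate 3.

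TSEN54, the other structural subunit, had 9.69, 11.04 and 12.9 CPM with NnK-1, 10.9, 12.9 and 11.1 CPM with CBRV1-10493 and 9.61, 14.2 and 13.98 CPM in control cells. The groups overlapped. In log2 units its fold change was -0.17 with NnK-1 (interval -0.63 to 0.29, adjusted p = 0.905) and -0.12 with CBRV1-10493 (interval -0.58 to 0.34, adjusted p = 1). Without control replicate 1 these values were -0.33 and -0.28, and without control replicate 2 they were -0.08 and -0.02.

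CLP1, the RNA kinase, was the scarcest of the 8 and the most uneven. Its counts were 105, 18 and 14 in the NnK-1 libraries, 39, 79 and 74 in the CBRV1-10493 libraries and 112, 91 and 88 in the control libraries. NnK-1 replicate 1 lay within the control range and the other two NnK-1 libraries far below it, while all CBRV1-10493 libraries lay below all control libraries. As levels these were 3.70 ± 3.97 CPM with NnK-1, 5.26 ± 1.75 CPM with CBRV1-10493 and 7.54 ± 1.28 CPM in control cells (SD, n = 3 each). The log2 fold change of NnK-1 over control was -1.01 (interval -2.05 to 0.03, adjusted p = 0.683). It was -2.42 without NnK-1 replicate 1 (adjusted p = 0.161), -0.67 without NnK-1 replicate 2 and -0.59 without NnK-1 replicate 3, so the value depends on which of these libraries is kept. For CBRV1-10493 over control it was -0.52 (interval -1.53 to 0.50, adjusted p = 1), and -0.27 without CBRV1-10493 replicate 1. In GENCODE v29 a noncoding transcript of the same strand, AP000662.1, overlaps CLP1, and YPEL4 overlaps it on the opposite strand. The 3′ end of CLP1 lies inside neither, but reads may still be shared between these genes.

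None of the 7 genes other than RTCB passed edgeR's test in any comparison. With NnK-1 against control 0 of 13676 genes passed (0%), and 7.32% had an unadjusted p under 0.05. For this comparison DESeq2 passed 3 genes, limma-voom 0 and edgeR without the filter on low counts 74, none of them among the 7. Of the 7 genes none reached that unadjusted level, 1 lay above 0 and 6 below, where 50.7% of all genes tested lay above 0, with a median log2 fold change of -0.17 against 0.00 over all genes tested. Groups that did not overlap were found for 1 of the 7, TSEN34 (lower), where 12.9% of all genes tested had such groups. With CBRV1-10493 against control 0% of genes passed, and none of the 7 had an unadjusted p under 0.05, where 2.88% of all genes tested had one. Groups did not overlap for 1 of the 7, CLP1 (lower), against 8.96% of all genes. Of the 7, 3 lay above 0 and 4 below, where 50.8% of all genes tested lay above 0, with a median of -0.05. The 95% intervals of the 7 genes in the NnK-1 comparison reached between 0.26 (DDX1) and 1.04 (CLP1) on the log2 scale to each side, with a median of 0.39.

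**Figure D2:**
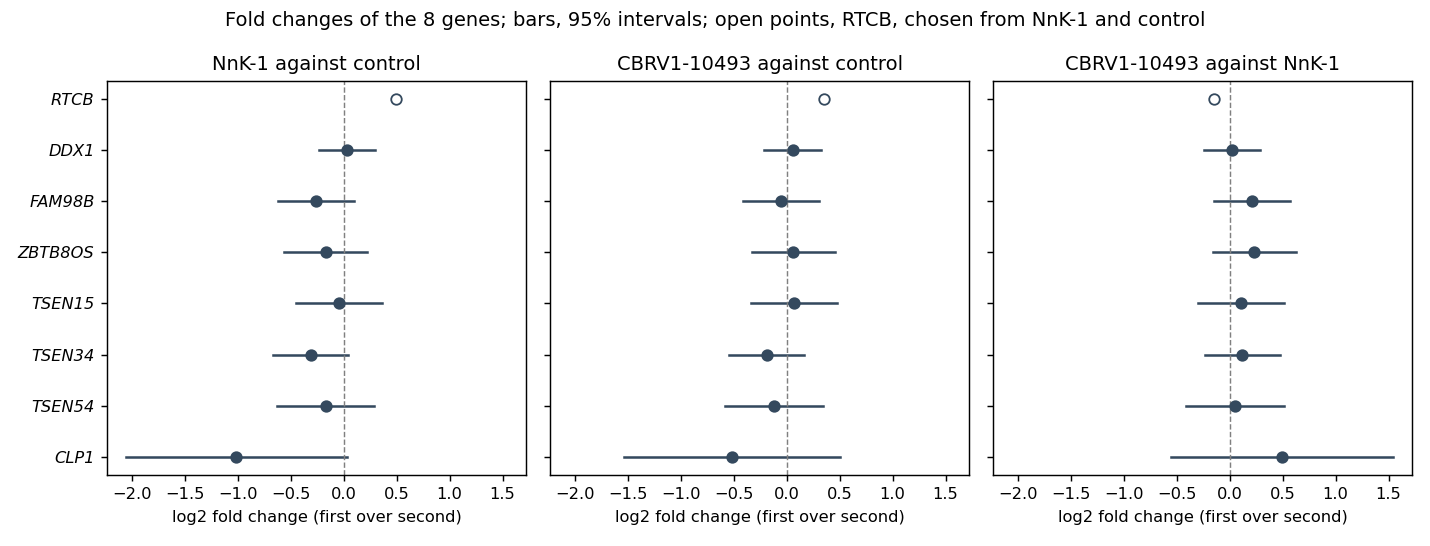
Log2 fold change (horizontal axis, first group over second) of the 8 genes in the 3 comparisons, with 95% intervals from edgeR's quasi-likelihood fit of 9 libraries. The open points are RTCB, chosen from the NnK-1 and control libraries and drawn without an interval, at 0.49, 0.35 and -0.14; all 7 other genes have intervals that include 0 in each panel.

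Between the peptides, which were given at equal dose and for equal time, none of the 7 genes other than RTCB differed detectably. DDX1 had a log2 fold change of 0.02 for CBRV1-10493 over NnK-1 (interval -0.25 to 0.29). RTCB stood at -0.14, a value that uses the NnK-1 libraries from which it was chosen and carries no test. All 7 lay above 0, as did 50.3% of all genes tested, with intervals that include 0. The other 6 lay between 0.05 for TSEN54 and 0.49 for CLP1 (interval -0.56 to 1.55). None of the 7 had groups that did not overlap, where 8.81% of all genes tested had them. Of all genes tested 0% passed, and 4.31% had an unadjusted p under 0.05, none of them among the 7.

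The counts of RTCB relative to those of its partners do not depend on the scaling between libraries. The ratio of RTCB to DDX1 counts was 0.953, 1.04 and 1.03 in the NnK-1 libraries, 0.804, 0.897 and 1.045 in the CBRV1-10493 libraries and 0.660, 0.743 and 0.793 in the control libraries. Both peptide groups lay above all control libraries, the CBRV1-10493 group by a narrow margin. The ratio to C14orf166, the subunit also called RTRAF, was 0.887 ± 0.084 with NnK-1, 0.819 ± 0.060 with CBRV1-10493 and 0.632 ± 0.087 in control cells (SD, n = 3 each). The ratio to FAM98A, a relative of FAM98B, was 2.88 ± 0.30 with NnK-1, 2.61 ± 0.44 with CBRV1-10493 and 1.90 ± 0.29 in control cells. Since RTCB was chosen for its level in the NnK-1 and control libraries, these ratios are a description.

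**Figure D3:**
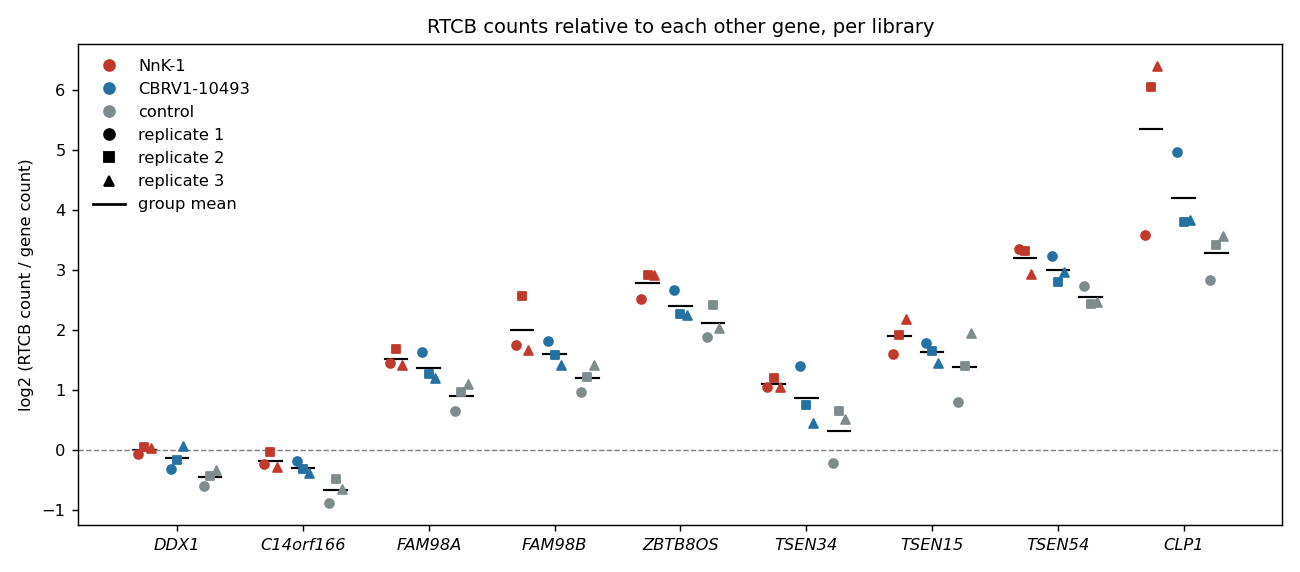
Log2 ratio of RTCB counts to the counts of 9 other genes (vertical axis) in each library; colours are groups, symbols replicates and lines group means. For DDX1 the group means are 0.01 with NnK-1, -0.14 with CBRV1-10493 and -0.45 in control cells.

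The order of the 8 genes was nearly the same in the 3 groups. QuantSeq reads transcripts at their 3′ ends, so the levels here are in CPM and were not divided by length. In control cells DDX1 led at 99.5 CPM, followed by RTCB at 72.9, TSEN34 at 58.9, FAM98B at 31.5, TSEN15 at 28.6, ZBTB8OS at 16.8, TSEN54 at 12.6 and CLP1 at 7.54 CPM. Among neighbours in that order, RTCB and TSEN34 overlapped in their control libraries, as did FAM98B and TSEN15, and the others did not. With NnK-1 RTCB and DDX1 stood side by side at 102.7 and 102 CPM, where control cells had 72.9 and 99.5 CPM. Averaged over the 9 libraries, DDX1 and RTCB stood at the 84.5 and 82.2 percentile of the genes tested and CLP1 at the 23.5 percentile. C14orf166, a ligase complex subunit outside the 8, averaged 115.1 CPM over the same libraries.

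Across the 9 libraries none of the 7 other genes followed RTCB closely. Pearson's r of log2 CPM with RTCB was 0.38 for DDX1, -0.10 for TSEN54, -0.17 for TSEN15, -0.36 for ZBTB8OS, -0.62 for FAM98B, -0.68 for CLP1 and -0.75 for TSEN34. The genes most like RTCB among 10616 compared were PCMT1, a protein repair methyltransferase (r = 0.95), SH3GLB1 (0.95), TTC9C (0.95), MRPL14, a mitochondrial ribosomal protein (0.95), and SNF8, a subunit of the ESCRT machinery (0.94). PCMT1 stood at 158.5 ± 3.03 CPM with NnK-1, 145.6 ± 9.56 CPM with CBRV1-10493 and 135.3 ± 5.09 CPM in control cells. TTC9C stood at 13.7 ± 0.95 CPM with NnK-1, 10.8 ± 0.92 CPM with CBRV1-10493 and 8.40 ± 0.64 CPM in control cells (SD, n = 3 each). These correlations are descriptions over 9 libraries in 3 groups that share their depth and scaling, and 19 of the genes compared lay above 0.9. RTCB was highest in NnK-1 replicate 2 and lowest in control replicate 1. These libraries are also the extremes of the leading principal component axis, at 26.8 and -15.8. Whether the likeness follows that axis was not tested.

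**Figure D4:**
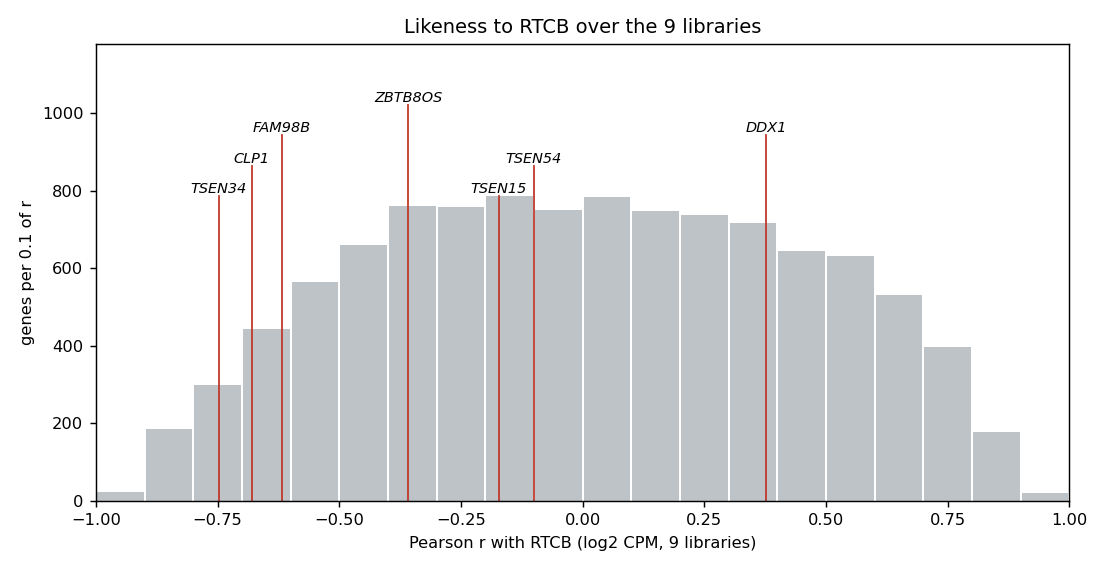
Number of genes (vertical axis) by their Pearson r with RTCB over 9 libraries (horizontal axis, bins of 0.1), among 10616 genes that average 5 CPM or more; red lines mark the other 7 genes of the set. DDX1 lies at 0.38, and the other 6 lie between -0.75 and -0.10.

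The remaining genes of the pathway, in 6 lists of 85 genes with 83 tested, held no gene that passed in either direction in any comparison. Of the further ligase complex and archease-linked genes, all 5 were tested. C14orf166 stood at 116.1 ± 3.92 CPM with NnK-1, 113.4 ± 1.48 CPM with CBRV1-10493 and 115.7 ± 7.88 CPM in control cells, and FAM98A at 35.8 ± 1.41, 35.9 ± 2.72 and 38.7 ± 2.31 CPM in the same groups. C2orf49, the subunit ashwin, had a log2 fold change of 0.23 with NnK-1 (interval -0.16 to 0.61) and 0.36 with CBRV1-10493 (interval -0.03 to 0.74, adjusted p = 1), with all CBRV1-10493 libraries above all control libraries. PYROXD1, an oxidoreductase that protects the ligase from oxidation, averaged 33.5 ± 2.15 CPM with NnK-1, 27.4 ± 5.05 CPM with CBRV1-10493 and 29.65 ± 2.66 CPM in control cells. Its log2 fold change was 0.17 with NnK-1 (interval -0.15 to 0.50) and -0.12 with CBRV1-10493 over control (adjusted p = 1). For CBRV1-10493 over NnK-1 it was -0.29 (interval -0.62 to 0.04, adjusted p = 0.994), with all CBRV1-10493 libraries below all NnK-1 libraries. The median of the 5 was 0.03 with NnK-1 and -0.11 with CBRV1-10493, against 0.00 over all genes tested in each. Groups did not overlap for 1 higher and 0 lower of the 5 with CBRV1-10493 against control, where 8.96% of all genes tested had such groups. With NnK-1 against control they did not for 0 higher and 0 lower, against 12.9%. Between the peptides they did not for 1 higher and 1 lower, against 8.81%.

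Of 5 other tRNA splicing enzymes, all were tested. ANGEL2, a phosphatase that acts on the cyclic phosphate RTCB uses, averaged 26.97 ± 0.19 CPM in NnK-1 libraries, 31.8 ± 4.33 CPM in CBRV1-10493 libraries and 32.5 ± 0.95 CPM in control libraries. Its log2 fold change with NnK-1 was -0.27 (interval -0.57 to 0.03, adjusted p = 0.703). Of 14 genes of messenger RNA 3′ cleavage, the other setting in which CLP1 works, 5 lay above 0 with NnK-1 and 3 with CBRV1-10493, where 50.7% and 50.8% of all genes tested did. The scaffold SYMPK averaged 17.9 ± 0.95 CPM in NnK-1 libraries and 26.2 ± 10.5 CPM in control libraries, a log2 fold change of -0.55 (interval -1.11 to 0.01, adjusted p = 0.683). The median of this list was -0.07 with NnK-1 and -0.06 with CBRV1-10493. For CBRV1-10493 over NnK-1, 8 of the 14 lay above 0 and 6 below, where 50.3% of all genes tested lay above 0. Among those below were CPSF1 at -0.41 (interval -0.70 to -0.12, adjusted p = 0.994) and CSTF2 at -0.37 (interval -0.71 to -0.03, adjusted p = 0.994).

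Genes for the ends and export of tRNA numbered 15 tested of 16, with medians of -0.01 with NnK-1 and 0.08 with CBRV1-10493. Groups did not overlap for 0 higher and 2 lower genes of the 15 with either peptide. Over all genes tested the shares in either direction were 12.9% with NnK-1 and 8.96% with CBRV1-10493. POP7, a protein subunit of RNase P, stood at 107 ± 8.65 CPM with NnK-1, 99.8 ± 9.05 CPM with CBRV1-10493 and 120.5 ± 0.41 CPM in control cells, with all control libraries above those of either peptide. Neither difference passed (log2 fold changes -0.17 and -0.27, adjusted p = 0.74 and adjusted p = 1). Of 30 genes of RNA polymerase III and its factors, which make tRNA precursors, 20 lay above 0 with NnK-1 and 16 with CBRV1-10493, where 50.7% and 50.8% of all genes tested did, with medians of 0.10 and 0.03. Groups did not overlap for 4 higher and 2 lower genes with NnK-1, against 12.9% of all genes in either direction, and for 1 higher and 3 lower genes with CBRV1-10493, against 8.96%. GTF3A, known as the factor of 5S ribosomal RNA transcription, averaged 153.3 ± 19.97 CPM in NnK-1 libraries and 119.6 ± 6.63 CPM in control libraries, a log2 fold change of 0.36 (interval 0.12 to 0.60, adjusted p = 0.578). In CBRV1-10493 libraries GTF3A averaged 124.6 ± 14.07 CPM, at -0.30 over NnK-1 (interval -0.54 to -0.06, adjusted p = 0.994). BRF2 lay the other way between the peptides, at 0.53 (interval 0.12 to 0.94, adjusted p = 0.994). In that comparison groups did not overlap for 1 higher and 2 lower genes of the 30, against 8.81% of all genes. POLR3F, a polymerase subunit, averaged 11.97 ± 2.18 CPM in NnK-1 libraries and 7.61 ± 1.06 CPM in control libraries, a log2 fold change of 0.65 (interval 0.16 to 1.15, adjusted p = 0.607). SNAPC3, a subunit of the complex that binds small nuclear RNA promoters, averaged 24.95 ± 5.86 CPM in CBRV1-10493 libraries and 33.9 ± 3.14 CPM in control libraries, a log2 fold change of -0.44 (interval -0.81 to -0.08, adjusted p = 1).

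XBP1, the messenger RNA that RTCB joins, did not differ detectably in level. It stood at 52.3 ± 9.49 CPM with NnK-1, 54.5 ± 3.78 CPM with CBRV1-10493 and 51.7 ± 2.41 CPM in control cells, with log2 fold changes of 0.02 (interval -0.26 to 0.30) and 0.08 (interval -0.20 to 0.36). Counts per gene do not separate its spliced from its unspliced form. ERN1, which encodes IRE1, had 6, 0 and 6 counts with NnK-1, 0, 0 and 14 with CBRV1-10493 and 3, 6 and 0 in control cells, and was not tested. Of 14 tested genes of the IRE1-XBP1 branch, 7 lay above 0 and 7 below with NnK-1, and 8 above and 6 below with CBRV1-10493. Of all genes tested 50.7% and 50.8% lay above 0. Groups did not overlap for 0 higher and 3 lower genes of the branch with NnK-1, against 12.9% of all genes. With CBRV1-10493 they did not for 0 higher and 1 lower, against 8.96%. SDF2L1, a chaperone partner of the endoplasmic reticulum, stood at 30.8 ± 3.17 CPM with NnK-1, 36.8 ± 10.2 CPM with CBRV1-10493 and 45 ± 10.3 CPM in control cells. Its log2 fold change was -0.55 with NnK-1 (interval -0.94 to -0.15, adjusted p = 0.578). HYOU1, a chaperone of the same compartment, averaged 109.1 ± 6.59 CPM in NnK-1 libraries and 133.5 ± 3.06 CPM in control libraries, a log2 fold change of -0.29 (interval -0.56 to -0.02, adjusted p = 0.659). With CBRV1-10493 HYOU1 averaged 115.4 ± 24.8 CPM, a log2 fold change over control of -0.21 (interval -0.48 to 0.06), and did not pass.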

How the data were processed

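The authors deposited unnormalized counts of reads for each gene symbol, with a file for each library. Per the labels, 500 ng of RNA entered Lexogen QuantSeq libraries, read single-end at 75 bp. Bowtie2, bedtools and build hg19 appear in the submitters' processing notes, and the sources used here name no version, annotation or counting option. Entries of 1 symbol were summed (25737 entries to 24462 symbols; none of the 8 genes stood on several). Genes were kept by filterByExpr, normalized with TMM and tested by quasi-likelihood in edgeR 4.0.16 (R 4.3.3), 1 model holding all 9 libraries, two-sided, with Benjamini-Hochberg adjustment over 13676 genes (threshold 0.05). CPM values are TMM-scaled unless they describe markers. The labels do not say that libraries came from separate cultures, so the spread behind a p-value here is that between libraries and may be technical. No pair of libraries agreed within sampling noise (chi-square at least 5.99 per degree of freedom). A trial of the test on simulated counts gave every gene the same spread and used fold changes larger than that of RTCB. It therefore cannot say how the test behaves on genes as uneven as CLP1 or on small changes. The genes and lists were chosen with earlier results of these data known. The text names the 8 genes, the 2 genes of smallest p in a list, 4 others (C14orf166, FAM98A, ERN1, XBP1) and the 5 most like RTCB; 1 further gene under this rule is not reported here. Alternatives used DESeq2 1.42.0 and limma 3.58.1.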

Additional observations from a re-analysis of the deposited data

How the results depend on the processing

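Over 16 alternatives (DESeq2's size factors, library totals alone, no filter on low counts, only the 6 libraries compared, the replicate number as a block, DESeq2's test, limma-voom and each of 9 libraries left out), 371 of 384 fold changes of the 8 genes kept their sign and 1 passed the threshold, that of RTCB without the filter on low counts in the contrast it was chosen from, which is no test. RTCB stayed between 0.41 and 0.54 for NnK-1 over control and between 0.27 and 0.40 for CBRV1-10493 over control. Without a filter on low counts the genes passing numbered 74 for NnK-1 against control, 6 for CBRV1-10493 against control and 1 for CBRV1-10493 against NnK-1; DESeq2's test passed 3 genes for NnK-1 against control and none of the 8. The cause was not tested. With libraries left out, the sign turned over these ranges: for NnK-1 over control TSEN15 -0.24 to 0.19; for CBRV1-10493 over control DDX1 -0.12 to 0.19, ZBTB8OS -0.043 to 0.15, TSEN15 -0.13 to 0.30 and TSEN34 -0.36 to 0.011; for CBRV1-10493 over NnK-1 DDX1 -0.15 to 0.15, TSEN15 -0.039 to 0.24, TSEN34 -0.051 to 0.29 and TSEN54 -0.042 to 0.16. By limma-voom DDX1 stood at -7e-04 for CBRV1-10493 over NnK-1. Genes of the 8 whose groups did not overlap numbered 0 to 3 between the peptides with a library left out (2 without NnK-1 replicate 1, where 24.1% of all genes had such groups, and 3, RTCB among them, without CBRV1-10493 replicate 1, where 23.3% had; the share over all genes is 8.81% with all libraries). With the replicate number as a block 0 genes passed in any comparison; same-numbered libraries deviated together with r of -0.06 to 0.13, so the number was not taken to pair them, and not every library correlated best with its own number. Taking the first entry of a symbol in place of the sum could not alter any of the 8. Of the 8 genes depth limits CLP1 most, with as few as 14 counts in a library.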
